A study of Anser sp. with 4 samples.

Results

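Of 20408 transcript identifiers detected in ventral goose skin around the molt, 269 (1.32%) had a low signal at both 1.5 and 5 days after molt and a higher one both before molt and on day 10. These identifiers were chosen by their signals on the same 4 arrays that are described here, so the shape of their course is a description and not a finding. A level is the log2 processed signal minus the 75th percentile of its array, averaged over those probes of the identifier that at least 1 array showed well above background. Levels under -3.7 were set to -3.7, the lower limit of the scale. The margin of an identifier is the lower of its levels before molt and on day 10 minus the higher of its levels at 1.5 and 5 days. A margin of at least 1.5 was required, with less than 1 between the levels at 1.5 and 5 days. Identifiers at least 4.0 lower on day 5 than at both outer times were left out.

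The study concerns feather regeneration in the Wanxi-White goose, and its samples are skin of female geese taken before molt and, after it, on days 1.5, 5 and 10. Each time is 1 one-colour array hybridised with Cy3-labelled copies of total RNA. The labels name 6 geese that were kept apart and sampled at every time, and leave unstated whether their RNA was pooled and which birds each array stands for. The probes were designed on chicken sequence (build galGal3), so goose RNA was hybridised to sequences of another species. No time has a replicate array, so times were not tested against each other and no p-value is given. The technical errors given below come from within the arrays and do not hold the difference between birds.

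A feather grows from a follicle in the skin, in which epidermal cells at the base divide and a dermal papilla below them directs the growth. At molt the old feather is shed and the follicle starts a new one, whose cells harden by filling with keratins and feather corneous proteins. Skin also holds the surface epidermis, dermal connective tissue, fat, vessels, nerves and the small muscles that move the feathers. In a piece of whole skin, fewer cells of a type and less RNA per cell cannot be told apart. The files pair none of the identifiers with a gene symbol (0 of 269), so the identifiers could be read neither by gene function nor by markers of cell types, and the label of the tissue was not checked against its markers.

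Before molt the 269 identifiers had levels between -2.20 and 7.91, with a median of 0.17. On day 1.5 the levels lay between -3.7 and 5.65 with a median of -2.80. On day 5 they lay between -3.7 and 5.24 with a median of -2.96. On day 10 they lay between -2.20 and 7.64 with a median of -0.36. The ranges of the high and low times overlap, since bright and dim identifiers were chosen alike, and the trough is seen within each identifier. The median over all 20408 detected identifiers was -1.02 before molt, -1.13 on day 1.5, -1.12 on day 5 and -1.06 on day 10.

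**Figure D1:**
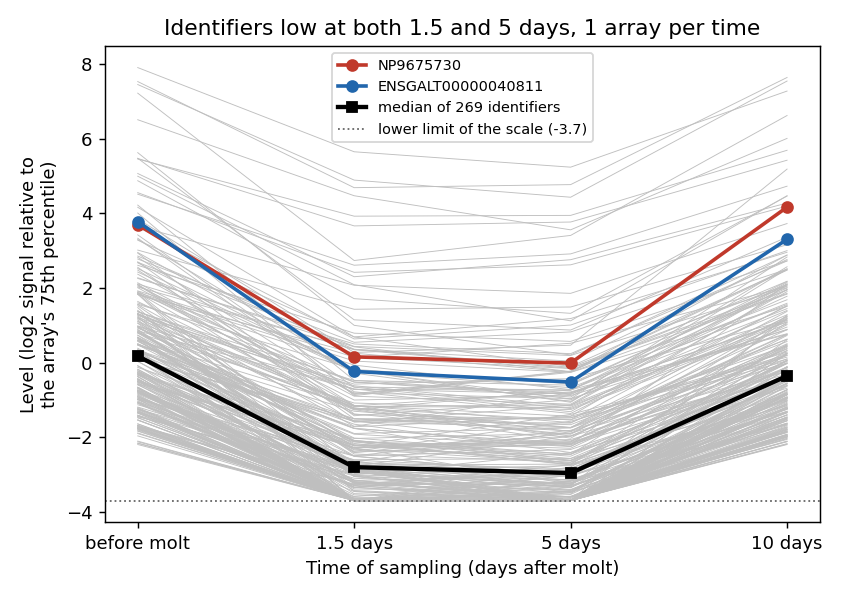
Level of each of the 269 identifiers (grey lines) at the 4 times, as log2 processed signal relative to the array's 75th percentile, with their median (black squares) and the 2 identifiers named in the text (coloured circles); each time is 1 array and there are no error bars. The median runs from 0.17 before molt over -2.80 and -2.96 to -0.36 on day 10, and many lines end at the lower limit of -3.7 (dotted) at 1.5 and 5 days.

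Every one of the 269 identifiers had to be lower on day 1.5 and on day 5 than at both other times, which the choice fixes. The size within that limit was a median of -2.54 on the log2 scale (5.802-fold) for day 1.5 against before molt, with values between -5.29 and -1.50. For day 5 against before molt the median was -2.69 (6.43-fold), with values between -5.54 and -1.50. The level on day 10 exceeded that on day 5 by a median of 2.30 (4.94-fold) and that on day 1.5 by 2.17 (4.51-fold). All 269 were at least 2-fold lower than before molt at both times, where 12.2% of all detected identifiers were on day 1.5 and 12.5% on day 5. All 269 were also at least 2-fold higher on day 10 than on day 5 and than on day 1.5, where 8.55% and 8.6% of all detected identifiers were. Since the choice used these contrasts, nothing is read from the counts.

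The margin had a median of 1.90 and reached 3.59. It was at least 2 for 114 identifiers and at least 3 for 18. Many lay close to the threshold, with 53 between 1.5 and 1.6 and a further 60 that met the other criteria between 1.4 and 1.5. The nearest margins inside were 1.503, 1.503 and 1.504, and the nearest outside were 1.495, 1.497 and 1.497. Before the other 2 criteria, 356 identifiers had the required margin. Of these, 78 were lower on day 5 than on day 1.5 by 1 or more, 3 were lower on day 1.5 by as much, and 6 were left out for the depth of their trough on day 5. The number depended on the processing. With a normexp background correction 53 identifiers met the rule, 36 of them among the 269, and the median over the 269 was -1.23 for day 1.5 and -0.76 for day 5, each against before molt. With the arrays scaled on spike-in RNA, 552 met it, 259 of them among the 269. The opposite shape, high at both 1.5 and 5 days by the same limits, was met by 44 identifiers.

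NP9675730 and ENSGALT00000040811 had the largest margins among identifiers well above background on all 4 arrays, and each was read by 1 probe. NP9675730 had a level of 3.70 before molt, 0.15 on day 1.5, -0.01 on day 5 and 4.17 on day 10. Its processed signals were 1617 ± 162 before molt, 149 ± 15.0 on day 1.5, 104 ± 10.6 on day 5 and 1966 ± 197 on day 10, where the error is Feature Extraction's own estimate for the spot. It was thus high on the arrays of before molt and 10 days and low on those of 1.5 and 5 days, as its choice by margin requires. Against before molt it was 11.7-fold lower on day 1.5, 13.1-fold lower on day 5 and 1.38-fold higher on day 10. The difference on day 10 was 0.47 on the log2 scale, and 0.08 with spike-in scaling. In that comparison the SD was 0.51 between probes of 1 identifier and 0.20 between repeated spots of 1 probe.

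ENSGALT00000040811, named by a chicken Ensembl transcript, had a level of 3.78 before molt, -0.24 on day 1.5, -0.52 on day 5 and 3.30 on day 10. Its processed signals were 1713 ± 171 before molt, 114 ± 11.5 on day 1.5, 73.1 ± 7.65 on day 5 and 1081 ± 108 on day 10, with the same kind of error. Signal was again high before molt and on day 10 and low on days 1.5 and 5. The difference between day 5 and day 1.5 was -0.28, and 0.07 with spike-in scaling. In that comparison the SD was 0.35 between probes of 1 identifier and 0.12 between repeated spots of 1 probe. ENSGALT00000040811 was 16.2-fold lower on day 1.5 and 19.7-fold lower on day 5 than before molt. On day 10 its level was -0.48 relative to before molt, where the SD was 0.51 between probes and 0.20 between repeated spots. In the authors' deposited table of log2 values NP9675730 stood at 10.57 before molt, 7.03 on day 1.5, 6.87 on day 5 and 11.18 on day 10. In the authors' deposited table ENSGALT00000040811 stood at 10.66, 6.66, 6.37 and 10.29 at these times.

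How far the low signals could be measured differed between the identifiers. All 269 were well above background before molt and on day 10, 210 on day 1.5 and 170 on day 5. The choice partly fixes these counts, since it requires higher levels before molt and on day 10. On all 4 arrays 165 (61.3%) were well above background, 54 only before molt and on day 10, 45 at all times but 5 days and 5 at all times but 1.5 days. Of all detected identifiers 90.7% were well above background on day 1.5 and 83.7% on day 5, so fewer were measured on day 5 on the array as a whole as well. Where a level stood at the lower limit the fold at that time is a lower bound, which includes 5 of the 165 on day 1.5. Some levels not well above background stood above the lower limit, and their folds are uncertain in both directions. At the lower limit of the scale stood 73 identifiers on day 1.5 and 86 on day 5, 59 of them at both. Over the 165, the median was -2.47 for 1.5 days and -2.69 for 5 days, each against before molt, which is close to the values over all 269.

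Summed over their 290 probes, the chosen identifiers took a small part of all non-control signal. That part was 0.510% before molt, 0.0889% on day 1.5, 0.0851% on day 5 and 0.521% on day 10. The median processed signal of these probes was 146 before molt, 20.1 on day 1.5, 13.7 on day 5 and 85.4 on day 10. The choice used these signals, so nothing is read from the course of the part or of the median. The error that Feature Extraction gives for a spot had a median of 10.1% of the signal before molt, 13.2% on day 1.5, 17.4% on day 5 and 10.2% on day 10. None of the 290 spots was saturated or marked as an outlier on any array (0 of 290).

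The levels on day 5 and on day 1.5 were close, as the choice requires, with 0 identifiers past 2-fold either way. Of all detected identifiers 2.87% were at least 2-fold lower and 2.76% at least 2-fold higher on day 5 than on day 1.5. Among the 169 identifiers above the lower limit at both times, 109 were lower and 60 higher on day 5, with a median of -0.22 on the log2 scale. This is 64.5% lower on day 5, against 54.0% of the 16730 detected identifiers above the limit at both. Of identifiers with the required margin, the choice had left out 78 lower on day 5 by 1 or more and 3 lower on day 1.5. The 16730 were not limited in this way. The SD between probes of 1 identifier in that comparison was 0.35, which is not the error of a median over 169 identifiers. The direction of the median depended on the scaling and on the background correction. For the same 169 identifiers the median was 0.12 with spike-in scaling, which moved the median of all identifiers by 0.23, and 0.39 with normexp, which moved that of all identifiers by 0.28. Over all 269 identifiers the median was -0.01, and 0.56 with normexp.

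On day 10 part of the identifiers stood below their level before molt. The choice bounds the level on day 10 from below and does not set it against before molt. At that time 187 identifiers were lower and 82 higher than before molt, with a median of -0.32 and values between -2.77 and 2.27. At least 2-fold lower were 51 identifiers (19.0%), against 7.31% of all detected, and at least 2-fold higher were 8 (2.97%), against 4.15% of all detected. Within 0.5 on the log2 scale lay 138 (51.3%), against 65.0% of all detected identifiers. At the lower limit stood 2234 of all detected before molt and 2660 on day 10, but 0 of the 269 at either time. A difference of exactly 0 was found for 1445 of all detected and for 0 of the 269. An identifier at the lower limit before molt cannot be lower on day 10, so the shares are not like for like. Those of the 269 describe identifiers chosen partly for being high on the array of before molt, and no test of them was made. Over the 165 well above background on all 4 arrays the median was -0.19. The values for day 10 differed with the place of the spot on the array, as given further below.

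Split by their level before molt, more of the identifiers with a level of 0 or above were 2-fold lower on day 10, which the choice partly fixes. Of 28 with a level of 3 or more before molt, 8 were at least 2-fold lower and 1 at least 2-fold higher on day 10, with a median of -0.49. Of 113 with a level from 0 to under 3, 34 were lower and 1 was higher, with a median of -0.47. Of 128 with a level under 0, 9 were lower and 6 higher, with a median of -0.17. The level before molt enters both sides of this comparison. The choice also kept every level on day 10 at -2.20 or above. An identifier less than 1 above that level before molt could thus not be 2-fold lower on day 10. Over all detected identifiers, whatever their level, 7.31% were at least 2-fold lower and 4.15% at least 2-fold higher on day 10. The same split was not made for them, so the classes describe the chosen identifiers only. The identifier that fell furthest among those measured on all arrays had a level of 5.63 before molt, 0.999 on day 1.5, 0.20 on day 5 and 2.88 on day 10. Of the 4 with the highest level before molt, 2 ended on day 10 within 0.11 of that level and 2 ended 0.60 and 0.63 below it.

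**Figure D2:**
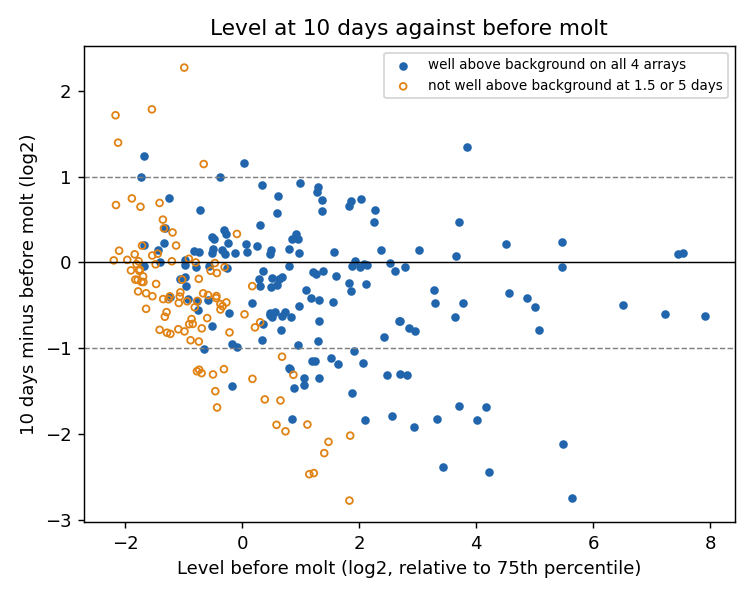
Difference between the levels on day 10 and before molt (vertical axis, log2) against the level before molt (horizontal axis, log2 relative to the array's 75th percentile), 1 point per identifier; filled points were well above background on all 4 arrays and open points were not at 1.5 or 5 days. Of the 269 points, 51 lie at or under the dashed line at -1 and 8 at or above the line at 1.

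Most of the chosen identifiers rested on a single probe. One probe was in use for 253 of them (94.1%), against 77.4% of all detected identifiers. The rule was met by 253 of 15805 identifiers read by 1 probe (1.601%), and by 16 of 4603 read by 2 or more (0.348%). The SD between probes of 1 identifier was 0.65 for day 1.5 against before molt and 0.64 for day 5 against before molt. It was 0.48 for day 10 against day 5 and 0.54 for day 10 against day 1.5. Between dim probes of 1 identifier the SD was larger, at 0.78, 0.75, 0.57 and 0.63 in the same order. Between repeated spots of 1 probe it was 0.12 to 0.29 over the 6 comparisons.

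The 16 identifiers read by 2 or more probes had 37 probes, whose own margins lay between -1.21 and 4.77 with a median of 1.72. In 9 of the 16 every probe had a margin above 0, in 8 every probe had at least 1, and in 3 every probe had at least 1.5. In 6 of the 16 at least 1 probe had a margin under 0, so that the trough was not seen on every probe of the identifier. One of these 6 had a probe at 2.47 before molt, -2.59 on day 1.5, -2.21 on day 5 and 2.37 on day 10. Its other probe stood at -1.47 before molt, -1.22 on day 1.5, -1.30 on day 5 and -1.73 on day 10, with no trough. Of the 22 probes with a margin of 1.5 or more, 11 lie in band 4 of the rows, as do 3 of the 15 others, where band 4 is the last of 4 equal bands of rows on the array. A further 27 probes of the chosen identifiers were well above background on no array and were not averaged.

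**Figure D3:**
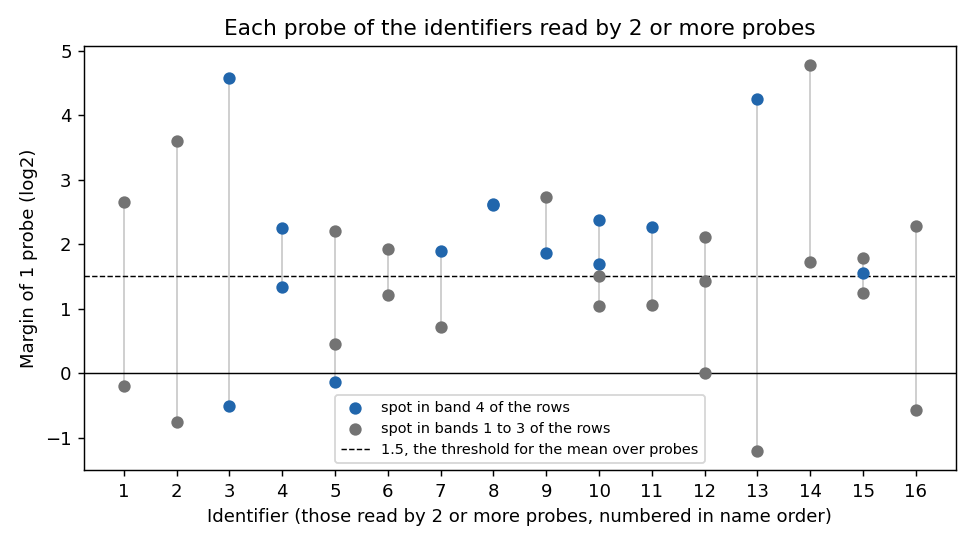
Margin of each of the 37 probes (log2) of the 16 identifiers read by 2 or more probes, 1 column of points per identifier, coloured by whether the spot lies in band 4 of the array's rows (the last of 4 equal bands). In 6 identifiers a probe lies under 0, and 22 of the 37 probes reach the dashed line at 1.5.

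The single probes that the rule averages into a level were also held to the rule separately. Among identifiers with 2 or more probes, 87 of 11459 probes (0.759%) met the rule on their own, in 83 identifiers. Of the 83, 13 are among the chosen identifiers, and all their probes in use entered that choice. The rest of the 83 were not chosen, so these values describe identifiers with 2 or more probes and are no separate check of the chosen ones. In 4 of the 83 at least 2 probes met the rule, and in 1 every probe did. Over the 87 probes, the mean margin of the remaining probes of the same identifier had a median of -0.28, against -0.44 for any probe. It was above 0 for 33 (37.9%), against 15.98% for any probe, and at least 1 for 13 (14.9%), against 1.81%. When identifiers were chosen on the mean of every other probe, starting with the first, 29 met the rule, and on the remaining probes the median margin was -0.28, with 11 above 0 and 3 at 1.5 or more, where 18.16% of all 4603 identifiers were above 0. Chosen on those remaining probes, 37 met it, and the probes starting with the first had a median margin of -0.13, with 15 above 0 and 2 at 1.5 or more, where 18.21% of all were above 0. The median margin of all 4603 identifiers was -0.44 on the one set of probes and -0.40 on the other. On these held-out probes the median for day 5 against before molt was -0.37 and -0.53, where it was 0.09 and 0.08 over all identifiers, and for day 1.5 against before molt -0.27 and -0.46, where it was 0.12 and 0.11. The held-out probes thus had medians below those of all identifiers at both times. These differences were smaller in size than the 1.5 that the choosing probes had to show. For most of the identifiers chosen this way the margin on the held-out probes was not above 0, so they showed no trough. The 253 identifiers read by 1 probe could not enter this comparison. The same arrays were used, and different probes of 1 identifier can read different splice forms or related transcripts.

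The place of a spot on the array, which the choice did not use, differed between the chosen identifiers and the rest. The array has 532 rows and 85 columns of spots, and 253 of the chosen identifiers are among 15797 read by 1 probe in 1 spot. Divided into 4 bands of equal height, the rows held 31, 34, 55 and 133 of them in bands 1 to 4, which is 0.818%, 0.848%, 1.33% and 3.43% of the detected identifiers in each band. Band 4, the last rows, thus held 52.6% of the chosen and 24.6% of the detected identifiers. Divided more finely into 10 strips of rows, the first strip held 10 (0.732%) and the last 78 (5.49%). Bands 1 to 4 of the columns held 35, 75, 76 and 67, which is 0.914%, 1.90%, 1.87% and 1.69% of the detected identifiers in each. Among the 15797 read by 1 probe in 1 spot, 52 were at least 4.0 lower on day 5 than at both outer times. Of these, whatever their level on day 1.5, 16 lay in band 1 of the rows and 16 (30.8%) in band 4. Those of the opposite shape numbered 18, 12, 4 and 7 in bands 1 to 4 of the rows. Band 1 thus held 43.9% of these 41 and 24.0% of the detected identifiers, and band 4 held 17.1% of the 41. In bands 1 to 4 of the columns they numbered 21, 13, 6 and 1, or 0.548%, 0.330%, 0.148% and 0.0253% of the detected identifiers. Among the chosen identifiers the share in band 4 of the rows was alike for small and large margins. It was 52.8% of 144 with a margin between 1.5 and 2, and 52.2% of 46 at 2.5 or more.

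**Figure D4:**
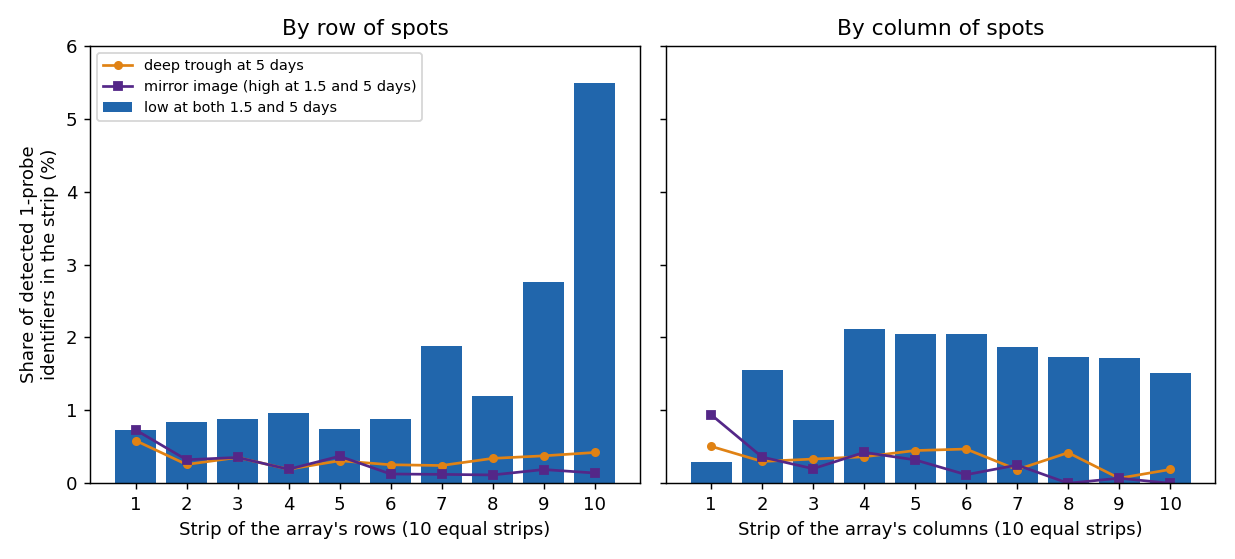
Share of the detected identifiers read by 1 probe in each of 10 equal strips of the array's rows (left) and columns (right), in percent, that were low at both 1.5 and 5 days (bars), had a deep trough on day 5 (circles) or had the opposite shape (squares). The bars stand between 0.732% and 0.958% in the first 6 strips of rows and at 5.49% in the last.

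Detection and levels of all spots differed along the rows in the same arrays. In band 4 of the rows 58.4% of spots were well above background before molt and 56.7% on day 10. On days 1.5 and 5 the shares there were 52.2% and 49.4%. In band 1 the shares were 57.8% on day 1.5 and 52.6% on day 5, against 55.2% before molt. Of all detected identifiers read by 1 probe, 23.2% in band 4 and 9.21% in band 1 were at least 2-fold lower on day 1.5 than before molt. On day 5 these shares were 20.9% in band 4 and 10.96% in band 1, and on day 10 they were 6.96% in band 4 and 9.504% in band 1. Probes spotted repeatedly over the array, whose spots share 1 sequence, were read only where every spot was well above background on all 4 arrays. In band 4 their margins were 0.02 above their own mean (SD 0.16, 33 spots of 20 probes). The median of these margins was -0.32, so these probes mostly had no trough. Spots that were not well above background were not tested this way. The chosen identifiers in band 4 were dimmer, with 66 of 133 (49.6%) well above background on all arrays, against 84 of 120 (70%) in the other bands. Their margins had a median of 1.91 in band 4 and 1.90 in the others. For day 10 against before molt their median was -0.46 in band 4 and -0.12 in the others. NP9675730 lies in row 504, in band 4, and ENSGALT00000040811 in row 14, in band 1.

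Per the file headers all 4 arrays lay on 1 slide. On it, 10 days was array 1, before molt array 2, 1.5 days array 3 and 5 days array 4. The high times were thus arrays 1 and 2 and the low times arrays 3 and 4, and time and place on the slide cannot be told apart. With the 75th percentile taken within each band of rows, 245 identifiers met the rule, 225 of them among the 269, and 44.6% of those in 1 spot still lay in band 4. Without the probes of band 4, 131 of 16342 identifiers (0.802%) met it. Of the 269, 133 then still had a probe in use. On day 10, 18 of these were at least 2-fold lower than before molt and 7 at least 2-fold higher. The shares of all identifiers were not counted in that setting. Both settings were added after the distribution over rows was seen. What part the place on the array has in the pattern was not tested beyond these values.

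By the kind of identifier, 99 of the 269 (36.8%) are chicken Ensembl transcripts, against 42.6% of all detected, and 30 (11.2%) are RefSeq mRNAs, against 18.4%. Identifiers that are CR accessions numbered 59 (21.9%, against 18.2%), BX accessions 24 (8.92%, against 4.96%), predicted RefSeq mRNAs 22 (8.18%, against 5.998%) and NP numbers 18 (6.69%, against 3.76%). The rule was met more often by identifiers read by 1 probe (1.601%) than by those read by 2 or more (0.348%). The kinds were not compared within identifiers read by 1 probe, so nothing is read from these shares.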

How the data were processed

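Total RNA of 4 skin samples was measured on 4 one-colour arrays. Spot intensity values were deposited by the authors as made with Agilent Feature Extraction 10.7, per the submitters' processing notes, and release 10.7.3.1 per the file headers. The processed intensity is background-subtracted by that program and not scaled between arrays, per the file headers. The deposited series table holds log2 values with a median of 3.74 in every column, and the way they were scaled was not given in the sources used here. The well-above-background and outlier flags (coded 0 or 1) were deposited with the spots and used as scored.

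Here log2 processed signals of the 43803 non-control spots were centred on each array's 75th percentile (105 to 134 in signal units). Repeated spots were averaged, then probes of 1 identifier. The files name 31550 identifiers. Per array 52.4% to 57.5% of spots were well above background and 0 were saturated. The number of arrays limits the precision. A call is a difference of at least 2-fold. The rule as coded was run on simulated data, with drops planted in bright identifiers only. The simulated noise was below the SD between probes and no effect of place was simulated. The run thus checks the code and not the present choice.

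The members and lists were chosen with earlier results of these data known. Without gene names, the naming rule allowed 2 identifiers, those with the largest margin well above background on all arrays. The 24 gene lists and the markers of other cell types could not be matched, and other identifiers of the same gene were not compared. Alternatives covered scaling, background, filter, probe summary, lower limit, outlier spots, threshold and place on the array. The normexp alternative (limma 3.58.1, R 4.3.3, offset 50) used the median spot signal, as the columns at hand hold no mean signal. Other steps used Python 3.11.15, numpy 2.4.6, pandas 2.3.3 and matplotlib 3.10.9.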

Additional observations from a re-analysis of the deposited data

Results flagged for a closer look

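The spike-in RNAs, which were added during labelling and enter the report only as an alternative scale, gave a signal that differed between the arrays. Over the 5 spike-in probes of mid-range signal, with 32 spots each, the log2 signal relative to the 75th percentile was higher than before molt by 0.911 ± 0.096 on day 1.5, by 0.562 ± 0.066 on day 5 and by 0.392 ± 0.059 on day 10 (SD over the 5 probes). It was noticed because these control probes stood above their level on the array of before molt at all 3 later times. By band of rows, 1 to 4, the shift on day 1.5 was 0.85, 0.88, 0.92 and 0.997. The medians of the 269 identifiers minus the mean spike-in shifts were -3.45 on day 1.5, -3.25 on day 5 and -0.72 on day 10, each relative to before molt. Here the lower limit was set before the subtraction. With the arrays scaled on the spike-in RNAs and the lower limit set on that scale, the medians were -3.30, -3.22 and -0.72.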

How the results depend on the processing

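The number of identifiers meeting the rule, 269 as reported, was 552 with spike-in scaling, 53 with normexp, 162 over probes well above background on all 4 arrays and 131 without band 4 of the rows. It was 649 at a margin of 1.0 and 114 at 2.0. The other 8 of 14 counts lay between 227 (median scaling) and 368 (no lower limit). Of the 269, 259 were kept with spike-in scaling, 36 with normexp, 240 with quantile normalization and 241 in the authors' deposited log2 table. The median for day 1.5 against before molt was -3.30 with spike-in scaling and -1.23 with normexp. For day 5 against before molt it was -0.763 with normexp, and for day 5 against day 1.5 0.561, opposite in sign. The median for day 10 against before molt stayed between -0.72 and -0.14. The other 44 of 48 medians moved by less than the SD between probes, which is not the error of a median. Of the values for the named identifiers, 88 moved by less than that SD and 4 by more. Of all these, the difference between day 5 and day 1.5 turned its sign under spike-in scaling, to 0.181 for NP9675730 and 0.068 for ENSGALT00000040811. Spike-in scaling moved the median of all identifiers by -0.79, -0.50 and -0.40 at 1.5, 5 and 10 days. With it, 88 of the 269 were at least 2-fold lower and 4 higher on day 10 than before molt. With normexp these counts were 27 and 2. The shares of all identifiers past 2-fold under these settings were not counted, so nothing is read from these counts. The share lying in band 4 of the rows was 42.2% to 54.9% over the settings that kept that band. The offset of 50 exceeds the median signal of these probes at 1.5 and 5 days, and the cause of the normexp values was not tested further. No replicate could be left out. No paired analysis was possible because each time has 1 array. Dim signals at 1.5 and 5 days limit the folds.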
